A study of Mus musculus with 4 samples.

Results

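The genes described here are 8 complement genes that macrophages are known to transcribe: C1qa, C1qb, C1qc, C3, C4b, Cfb, Cfp and Serping1. They were taken by symbol from a table of 54532 genes, no threshold on their values was applied, and each symbol was found. The list was chosen with earlier results of these data known, so counts of its genes set beside all genes below are a description only. Their reads were followed across 4 bulk RNA-seq libraries of peritoneal macrophages, prepared to ask what the aryl hydrocarbon receptor (AHR), a ligand-activated transcription factor, does in macrophages exposed to the products of breast cancer cells. The cells came from wild-type BALB/c mice given thioglycollate, an irritant that draws macrophages into the peritoneal cavity, and all 4 libraries share this origin. 4T1 is a mouse mammary carcinoma line and 4T1-CM is medium conditioned by it. CH223191 is an AHR antagonist and DMSO its solvent. The 4 groups were normal medium with DMSO, normal medium with 10 µM CH223191, 30% 4T1-CM with DMSO, and 30% 4T1-CM with 10 µM CH223191, with 1 library each. The number of mice behind a library, and whether they were pooled, is not given in the sources used here. Values are always listed below in that order of groups.

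Complement is a set of plasma and cell-surface proteins that mark particles for uptake, attract leukocytes and lyse membranes. The classical pathway starts when C1q, assembled from A, B and C chains, binds antibody or cell debris and the attached proteases cleave C4 and C2. The alternative pathway amplifies deposited C3 through factor B and is stabilised by properdin. The liver makes most plasma complement, but tissue macrophages are a main source of C1q and properdin and can produce C3, C4 and factor B locally.

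The libraries held 15535405, 16129075, 17557127 and 16388246 counted reads. With 1 library per group, no pair of libraries had a replicate check, and each 95% interval below is an exact Clopper-Pearson interval made from a gene's reads in the libraries compared. It covers counting error alone and speaks for those libraries, not for the conditions. The main test was an additive edgeR quasi-likelihood fit over all 4 libraries, with medium and inhibitor as terms, and DESeq2 with the same terms was its alternative. CPM (counts scaled to library size) were taken after TMM scaling, which brings the libraries to a common level, and RPKM are CPM per kilobase of gene length. Macrophage identity was checked first. All 8 macrophage markers (Adgre1, Csf1r, Cd68, Itgam, Lyz2, Mertk, Fcgr1 and Cd14) had more than 3 reads in each library, and their summed level was 14300, 18500, 40700 and 43400 CPM. The sums over markers of T cells, mast cells, mesothelial cells, dendritic cells and epithelial tumour cells did not exceed 1.94 CPM in any library, with Cd3e, Cd3d, Trac and Cd8a at 0. S100a9, Ly6g and Retnlg of neutrophils were at 0 as well, and the other markers of neutrophils, B cells and eosinophils are given beside the results. In bulk RNA, fewer cells of a type and less RNA per cell cannot be told apart.

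By GENCODE M21 coordinates on GRCm38, all 8 genes lie on the minus strand. C1qa (chr4:136895917-136898803), C1qc (chr4:136889804-136893065) and C1qb (chr4:136880129-136886187) are neighbours on chromosome 4, each with 3 exons. C3 (chr17:57203970-57228136, 41 exons), C4b (chr17:34728380-34743882, 41 exons) and Cfb (chr17:34856374-34862518, 18 exons) are on chromosome 17. Cfp (chrX:20925454-20931555, 9 exons) is on the X chromosome and Serping1 (chr2:84765387-84775444, 8 exons) on chromosome 2. Reads of C1qa, C1qb, C1qc, C3, Cfp and Serping1 met no overlapping gene and no shared 50-base word. For Cfb, 79.5% of the exonic bases also lie within Gm20547, an annotated readthrough of the same region that was listed at 0 reads in each library. For C4b, 34.6% of the 50-base words also occur in C4a, which had 16, 21, 16 and 12 reads. How the counting treated reads that fit both genes of such a pair is not given in the sources used here, so the counts of Cfb and C4b are uncertain to that extent.

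The RefSeq promoter table of GRCm38.p6 matched C1qb, C1qc, C3 and Cfp of the 8 genes. The 250 bases before the start of C3, C1qb and Cfp are shown because these genes span the range of 4T1-CM ratios among the matched genes. The window of C1qc was searched but not printed, since it overlaps the first exon in GENCODE M21. Each is written 5′ to 3′ on the strand of the gene, the minus strand, with the letters matched by a motif in capitals.
C3, chr17:57228137-57228386: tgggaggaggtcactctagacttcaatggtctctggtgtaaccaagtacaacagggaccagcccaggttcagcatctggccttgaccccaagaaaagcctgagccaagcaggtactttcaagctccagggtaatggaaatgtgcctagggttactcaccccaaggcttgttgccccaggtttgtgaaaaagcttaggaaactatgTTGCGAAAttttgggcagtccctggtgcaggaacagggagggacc
C1qb, chr4:136886201-136886450: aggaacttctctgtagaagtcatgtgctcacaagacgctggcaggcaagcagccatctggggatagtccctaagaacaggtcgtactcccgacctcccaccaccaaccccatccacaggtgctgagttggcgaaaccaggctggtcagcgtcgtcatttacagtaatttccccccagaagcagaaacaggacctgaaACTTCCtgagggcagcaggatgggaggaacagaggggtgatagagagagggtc
Cfp, chrX:20931556-20931805: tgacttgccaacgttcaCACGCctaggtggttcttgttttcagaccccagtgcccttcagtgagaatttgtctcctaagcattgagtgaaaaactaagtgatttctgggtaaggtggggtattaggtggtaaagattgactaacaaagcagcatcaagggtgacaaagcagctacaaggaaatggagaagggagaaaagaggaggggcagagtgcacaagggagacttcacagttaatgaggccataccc

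Both strands were searched for 7 motifs: the xenobiotic response element core bound by AHR (GCGTG), GAS (TTCNNNGAA), ISRE (GAAANNGAA), MARE (TGCTGAC), PU.1 (GGAAGT), NF-kB (GGGANNTTC) and C/EBP (TTGCNNAA). The C3 window held a C/EBP match on the strand of the gene, 45 to 38 bases before the start, and 9.6% of all 32851 promoters of this length hold one. The C1qb window held a PU.1 match on the opposite strand, 53 to 48 bases before the start, and the C1qc window held one 195 to 190 bases before its start. PU.1 letters occur in 19.7% of all promoters. The Cfp window held the only xenobiotic response element core of the 4 windows, on the opposite strand 233 to 229 bases before the start, and 28.2% of all promoters hold one. No match overlapped another. The shares for the motifs with no match here were 7.0% for GAS, 7.1% for ISRE, 3.8% for MARE and 3.2% for NF-kB. These matches describe letters in the window and not bound sites.

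Of the 8 genes, 7 passed the filter of at least 10 reads in at least 1 library. Serping1 did not, and Cfb passed only through the 4T1-CM libraries, so its difference was fixed by the filter. With DMSO, 6 of 7 were at least 2-fold higher in 4T1-CM than in normal medium, beside 12.2% of all 13715 genes kept, and 0 of 7 were at least 2-fold lower, beside 6.11%. With CH223191, 4 of 7 (C1qa, C1qb, C3 and Cfb) were at least 2-fold higher, beside 12.0%, and 0 of 7 were at least 2-fold lower, beside 7.86%. Without Cfb the counts were 5 of 6 and 3 of 6, and the median log2 ratio of these 6 genes was 1.64 with DMSO and 1.22 with CH223191, against 0.01 and 0.02 over all genes. In the additive edgeR fit the 6 genes other than Cfb all rose with 4T1-CM at an adjusted p below 0.05, where 16.4% of all genes rose and 16.2% fell. The comparison of media with DMSO and that with CH223191 shared no library.

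**Figure D1:**
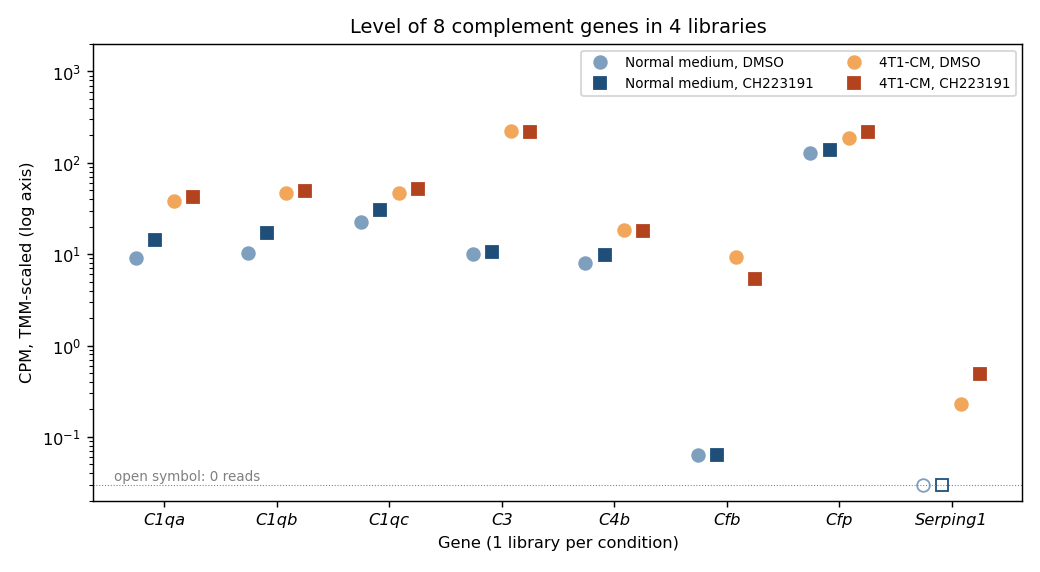
Level of the 8 genes in CPM (TMM-scaled, log axis), with 1 point per library; circles are DMSO and squares CH223191, blue is normal medium and orange 4T1-CM, and open symbols mark 0 reads. C3 moved from 10.1 and 10.5 CPM in normal medium to 221 and 219 CPM in 4T1-CM, while Cfp lay at 129 CPM or above in each library.

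C1q is the recognition molecule of the classical pathway, and C1qa encodes its A chain. C1qa had 146, 229, 674 and 691 reads, or 9.16, 14.4, 38.5 and 42.5 CPM. Both 4T1-CM libraries lay above both libraries in normal medium, and within normal medium the CH223191 library was the higher. The level in 4T1-CM was 4.20-fold that in normal medium with DMSO (log2 2.07, 95% interval 1.81 to 2.34) and 2.95-fold with CH223191 (log2 1.56, 1.34 to 1.78). In the additive edgeR fit C1qa rose by 1.81 ± 0.17 (SE) on the log2 scale with 4T1-CM (Benjamini-Hochberg adjusted p = 1.77e-05).

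C1qb, the gene of the B chain, had 164, 269, 808 and 809 reads, or 10.3, 16.9, 46.2 and 49.8 CPM. Its order over the libraries was that of C1qa. The ratio of 4T1-CM to normal medium was 4.49-fold with DMSO (log2 2.16, 1.92 to 2.42) and 2.94-fold with CH223191 (log2 1.56, 1.36 to 1.76). The edgeR estimate was 1.85 ± 0.17 (SE, adjusted p = 1.74e-05). Among 11764 other genes that had at least 10 reads in each of the libraries, C1qb was the gene whose pattern lay nearest to C1qa, with a root mean square difference of 0.034 in log2 CPM over the 4 libraries after each gene was centred on its mean.

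C1qc, the gene of the C chain, had 359, 488, 812 and 845 reads, or 22.5, 30.7, 46.4 and 52.0 CPM. The 4T1-CM libraries were again the higher pair, but by less than for the other chains. The ratio was 2.06-fold with DMSO (log2 1.04, 0.86 to 1.23) and 1.70-fold with CH223191 (log2 0.76, 0.60 to 0.93), and the edgeR estimate was 0.90 ± 0.14 (SE, adjusted p = 0.000598). By the same measure of likeness C1qc ranked 548 among the genes nearest to C1qa, at 0.463.

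The chains of C1q did not keep one ratio across the media. Per length, C1qc made up 39.0% and 35.1% of the summed C1q level in normal medium and 23.2% and 23.7% in 4T1-CM. The share of C1qb was 31.6% and 34.3% in normal medium and 41.0% and 40.3% in 4T1-CM, and that of C1qa was 29.4% and 30.6%, then 35.8% and 36.0%. The ratio of one gene's reads to another's in the same library needs no scaling between libraries. From normal medium to 4T1-CM, the log2 ratio of C1qa to C1qc moved by 1.03 (0.72 to 1.34, normal approximation for counting error) with DMSO and by 0.80 (0.53 to 1.07) with CH223191. For C1qb over C1qc the shift was 1.12 (0.82 to 1.42) and 0.80 (0.54 to 1.05). The ratio of C1qa to C1qb moved by -0.09 (-0.45 to 0.26) and 0.00 (-0.29 to 0.30), within counting error. The summed C1q level was 29.9, 45.3, 103 and 114 RPKM.

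**Figure D2:**
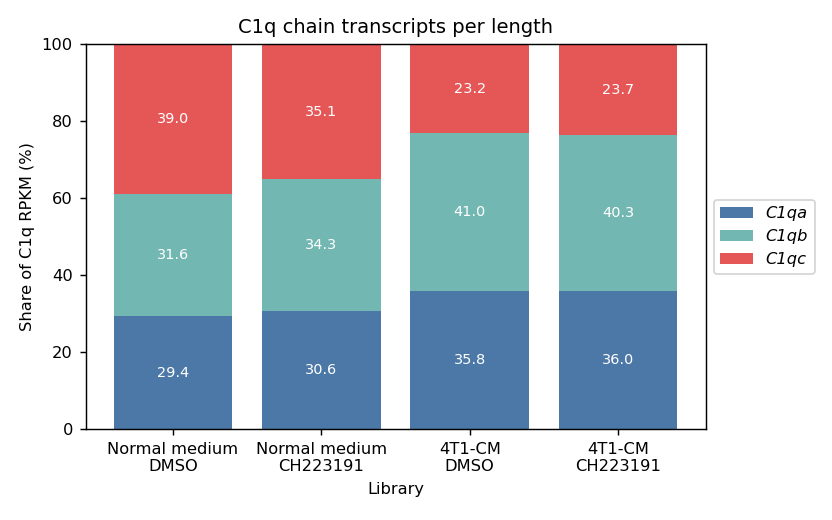
Share of the summed C1q level per length (percent of RPKM, vertical axis) taken by C1qa, C1qb and C1qc in each of the 4 libraries (horizontal axis). The share of C1qc was 39.0% and 35.1% in normal medium and 23.2% and 23.7% in 4T1-CM.

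C4b encodes complement C4, which is cleaved by the proteases attached to C1q. C4b had 127, 155, 326 and 294 reads, or 7.97, 9.75, 18.6 and 18.1 CPM, with both 4T1-CM libraries above both others. The ratio was 2.34-fold with DMSO (log2 1.22, 0.92 to 1.53) and 1.86-fold with CH223191 (log2 0.89, 0.61 to 1.18). The edgeR estimate was 1.06 ± 0.18 (SE, adjusted p = 0.00113). Its near-identical neighbour C4a stayed at or below 21 reads in each library.

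Serping1 encodes C1 inhibitor, which blocks the proteases of C1 and of the lectin pathway. It had 0 reads in each library in normal medium and 4 and 8 reads in 4T1-CM, or 0.228 and 0.492 CPM. A count of 0 allows up to 3 reads, or 0.188 and 0.189 CPM in these libraries. Against that limit per library, the level in 4T1-CM was at least 1.21-fold higher with DMSO and at least 2.61-fold higher with CH223191. These bounds take the 4 and 8 reads as exact. With counting error on them too, the lower limit of the exact interval was 0.601-fold with DMSO, which does not exclude an equal level, and 1.67-fold with CH223191. Without the filter on low counts, edgeR gave Serping1 an adjusted p of 0.114 for 4T1-CM.

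C3 is the central component on which all pathways converge. It had 161, 167, 3862 and 3555 reads, or 10.1, 10.5, 221 and 219 CPM. Both libraries of a medium lay close together, and the media stood far apart. The level in 4T1-CM was 21.8-fold that in normal medium with DMSO (log2 4.45, 4.22 to 4.69) and 20.8-fold with CH223191 (log2 4.38, 4.16 to 4.61). These ratios ranked 134 and 126 among 13715 genes. The edgeR estimate was 4.41 ± 0.15 (SE, adjusted p = 1.07e-08), and across the alternatives the adjusted p lay between 1.05e-152 and 2.31e-06.

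Cfb encodes factor B, the protease subunit of the alternative pathway convertase. It had 1, 1, 165 and 88 reads, or 0.0627, 0.0629, 9.43 and 5.42 CPM. Normal medium was at the limit of detection in both libraries. The ratio of 4T1-CM to normal medium was 150-fold with DMSO (95% interval 26.6 to 5970) and 86.1-fold with CH223191 (15.1 to 3440), each resting on 1 read in normal medium. With the prior count of 0.5 the log2 ratios were 6.66 and 5.87, and with a prior count of 5 they were 4.73 and 3.96. Since Cfb was kept only for its reads in 4T1-CM, no p-value is given for its difference between the media.

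Cfp encodes properdin, which stabilises the convertase that factor B forms with C3. It was the most abundant of the 8 genes per length, and had 2060, 2179, 3311 and 3577 reads, or 129, 137, 189 and 220 CPM. The ratio of 4T1-CM to normal medium was 1.46-fold with DMSO (log2 0.55, 0.47 to 0.63) and 1.61-fold with CH223191 (log2 0.68, 0.61 to 0.76). Cfp was the one gene of the 7 that did not reach 2-fold in either comparison. The edgeR estimate was 0.62 ± 0.13 (SE, adjusted p = 0.00401).

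**Figure D3:**
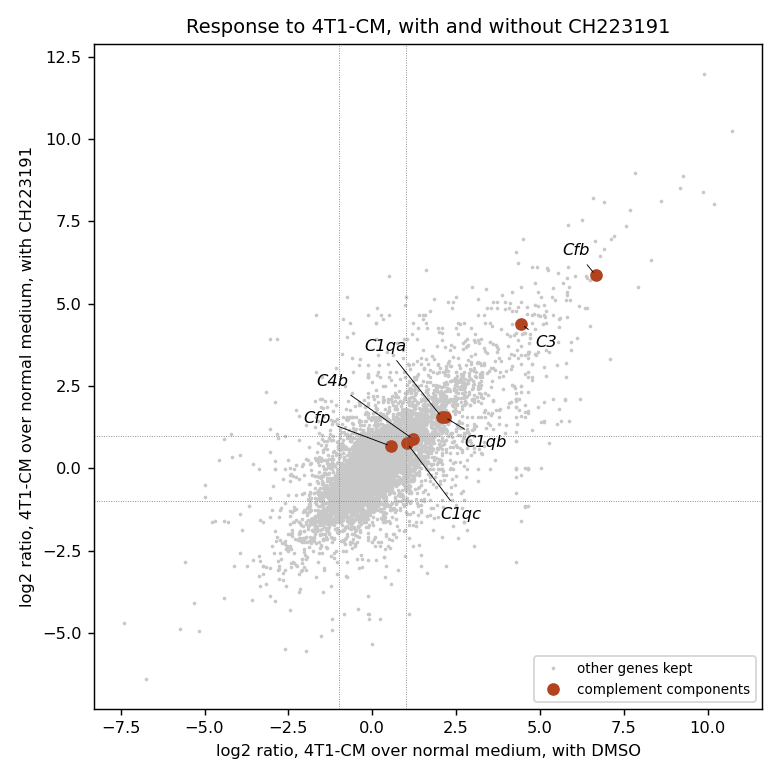
Log2 ratio of 4T1-CM over normal medium with DMSO (horizontal axis) and with CH223191 (vertical axis) for each of the 13715 genes kept (grey) and the 7 complement genes kept (red); dotted lines mark 2-fold, and ratios include a prior count of 0.5. C3 lies at 4.45 and 4.38, and Cfb at 6.66 and 5.87, above the C1q chains and C4b.

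Compared per length within a library, Cfp was first in all 4 libraries at 74.4, 78.9, 109 and 127 RPKM. In normal medium with DMSO it was followed by C1qc (11.7 RPKM), C1qb (9.46), C1qa (8.81), C3 (1.96) and C4b (1.40), with Cfb at 0.0222 RPKM and Serping1 at 0. C1qb and C1qa did not differ beyond counting error there (ratio 1.07, 0.854 to 1.35). The order in normal medium with CH223191 was the same, but neither C1qc over C1qb (1.02, 0.879 to 1.19), C1qb over C1qa (1.12, 0.938 to 1.35) nor C3 over C4b (1.19, 0.953 to 1.49) differed beyond counting error. In 4T1-CM with DMSO, C3 stood at 42.9 RPKM, C1qb at 42.4, C1qa at 37.0 and C1qc at 24.0. C3 and C1qb did not differ beyond counting error in that library (1.01, 0.937 to 1.09), and neither did Cfb at 3.34 and C4b at 3.27 RPKM (1.02, 0.841 to 1.23). In 4T1-CM with CH223191 the levels were 45.8 RPKM for C1qb, 42.5 for C3, 40.9 for C1qa, 26.9 for C1qc, 3.18 for C4b, 1.92 for Cfb and 0.212 for Serping1. There, neither C1qb over C3 (1.08, 0.995 to 1.16) nor C3 over C1qa (1.04, 0.959 to 1.13) differed beyond counting error, whereas C4b was 1.66-fold Cfb (1.30 to 2.13).

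Together the 8 genes took 3018, 3488, 9962 and 9867 reads, which is 0.0194%, 0.0216%, 0.0567% and 0.0602% of the library. In normal medium Cfp held 68.3% and 62.5% of these reads and C3 5.3% and 4.8%. In 4T1-CM the shares were 33.2% and 36.3% for Cfp and 38.8% and 36.0% for C3.

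CH223191 was compared with DMSO within each medium. In normal medium, where Cfb had 1 read in each library, 0 of the 6 other genes were at least 2-fold higher, beside 4.84% of all genes, and 0 of 6 were at least 2-fold lower, beside 3.31%. In 4T1-CM the counts were 0 of 7 and 0 of 7, beside 2.75% higher and 2.66% lower. The 6 genes other than Cfb had a median log2 ratio of 0.37 among libraries in normal medium and of 0.13 among those in 4T1-CM, against 0.00 over all genes in both. Over the 24 other complement genes kept, described below, these medians were 0.41 and -0.05, and over the 8 macrophage markers 0.24 and 0.03. In the additive edgeR fit 0 of 7 passed for CH223191, where 0.0729% of all genes rose and 0.00729% fell. At an unadjusted p below 0.05 there were 4 of 7 (C1qa, C1qb, C1qc and Cfb), beside 6.42% of all genes, with adjusted p between 0.762 and 0.778, and DESeq2 called 0. DESeq2 gave Cfb no adjusted p for CH223191, so it could not call that gene.

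In normal medium the C1q chains had more reads with CH223191 than with DMSO, by less than 2-fold. The log2 ratios were 0.65 (0.35 to 0.96) for C1qa, 0.72 (0.43 to 1.01) for C1qb and 0.45 (0.25 to 0.65) for C1qc, each interval excluding 0. In 4T1-CM the ratios were 0.14 (-0.01 to 0.30), 0.11 (-0.03 to 0.25) and 0.17 (0.02 to 0.31). The additive edgeR estimates for CH223191 were 0.36 ± 0.16 (SE, adjusted p = 0.778) for C1qa, 0.37 ± 0.17 (adjusted p = 0.776) for C1qb and 0.30 ± 0.14 (adjusted p = 0.778) for C1qc.

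For C3 the log2 ratio of CH223191 to DMSO was -0.01 (-0.08 to 0.05) with 4T1-CM, and with normal medium it was 0.06 (-0.26 to 0.38). For C4b it was -0.04 (-0.27 to 0.19) and 0.29 (-0.06 to 0.64), so that all 4 intervals of these genes include 0. Cfb was read once in each library in normal medium, so no ratio is given there. In 4T1-CM, Cfb had 88 reads with CH223191 and 165 with DMSO, a log2 ratio of -0.80 (-1.19 to -0.42), the lowest of the 7 genes. Its edgeR estimate was -0.77 ± 0.32 (SE, unadjusted p = 0.0359, adjusted p = 0.762). Cfp had a ratio of 0.08 (0.00 to 0.17) within normal medium and of 0.22 (0.15 to 0.29) within 4T1-CM. Serping1, with 8 reads against 4 in 4T1-CM, gave 1.11 (-0.79 to 3.29).

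**Figure D4:**
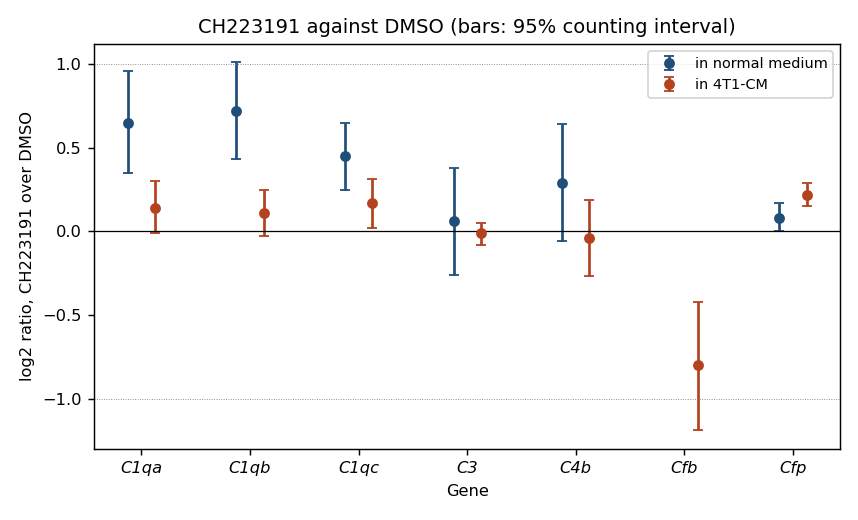
Log2 ratio of CH223191 over DMSO in normal medium (blue) and in 4T1-CM (red) for 7 complement genes, with the exact 95% interval of the read split; dotted lines mark 2-fold, and Cfb has no value in normal medium, where it had 1 read per library. C1qa and C1qb lie at 0.65 and 0.72 in normal medium and at 0.14 and 0.11 in 4T1-CM, and Cfb lies at -0.80 in 4T1-CM.

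The response to 4T1-CM under DMSO was subtracted from that under CH223191, and the interval of this difference (normal approximation) covers counting error only, so it was not tested against replicates. It was -0.51 (-0.85 to -0.17) for C1qa, -0.61 (-0.92 to -0.29) for C1qb and -0.28 (-0.52 to -0.04) for C1qc on the log2 scale. For C4b it was -0.33 (-0.74 to 0.08) and for C3 -0.07 (-0.39 to 0.25), within counting error. For Cfp it was 0.13 (0.02 to 0.25). The same 4 libraries give these differences and the differences between the CH223191 ratios above, so the values are one measurement written in 2 ways.

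Markers of other cells moved with some of these results. Fibroblasts, which also make C3, C4 and C1 inhibitor, can be present in peritoneal cultures. Of 6 fibroblast markers, 5 had more than 3 reads in each library, and the summed level was 63.0, 30.1, 149 and 127 CPM. In the edgeR fit 4 of the 5 kept (Col1a1, Col1a2, Col3a1 and Dcn) rose with 4T1-CM, beside 16.4% of all genes. Lum was at 3 reads in normal medium with DMSO and at 0 in the others, and Pdgfra was at 91, 49, 83 and 70 reads. The part of these cells in the levels of C3, C4b and Serping1, and of the other complement genes below such as C1ra and C1s1, was not tested. The 8 macrophage markers moved too. In the edgeR fit 7 of 8 rose with 4T1-CM, beside 16.4% of all genes. Their median log2 ratios were 1.25 and 1.10 for 4T1-CM with DMSO and with CH223191. Whether the C1q rise differed from that of macrophage markers was not tested. The neutrophil markers summed to 65.2, 72.8, 119 and 134 CPM. Of the 3 kept, S100a8 (1.69 ± 0.25, adjusted p = 0.000574) and Csf3r (0.71 ± 0.13, adjusted p = 0.00189) rose with 4T1-CM in edgeR, and Cxcr2, at 12, 9, 2 and 0 reads, fell. Cxcr2 passed the filter only through normal medium with DMSO, so its fall cannot be separated from the filter, and DESeq2 gave it no adjusted p. The B cell markers summed to 20.1, 34.2, 7.65 and 4.74 CPM and the eosinophil markers to 16.2, 14.4, 6.17 and 5.79 CPM, and the 1 marker kept of each, Ighm (-2.20 ± 0.30, adjusted p = 0.000307) and Siglecf (-1.37 ± 0.18, adjusted p = 0.000251), fell. The part of these cells in the complement values was not tested.

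Transcription factors were read from a list of 12, which includes Ahr. Whether any of them regulates these genes here was not tested. With 4T1-CM, 4 rose and 3 fell in the edgeR fit, beside 16.4% and 16.2% of all genes. DESeq2 called 6 of the 12, beside 2452 of 13715 genes. Stat3, which carries acute-phase cytokine signals, rose by 0.85 ± 0.13 (SE, adjusted p = 0.000513) and Nfkb1, an NF-kB subunit, by 0.55 ± 0.12 (adjusted p = 0.00605). Cebpb, a C/EBP factor, had 3639, 1777, 5653 and 6208 reads and rose by 1.13 ± 0.24 (adjusted p = 0.00464 in edgeR but 0.177 in DESeq2). Maf and Spi1, the gene of PU.1, fell, with estimates of -0.68 ± 0.17 (adjusted p = 0.0107) and -0.48 ± 0.13 (adjusted p = 0.0140). Nr1h3, the gene of the sterol receptor LXRα, also fell (-1.14 ± 0.18, adjusted p = 0.000945). Ahr itself had 30, 21, 150 and 167 reads and rose by 2.55 ± 0.27 (adjusted p = 5.15e-05). For CH223191, 0 of the 12 passed in either tool, with 1 at an unadjusted p below 0.05 in edgeR, beside 6.42% of all genes.

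The rest of the system was read from a list of 44 other complement genes. Of these, 24 passed the filter and 15 had 0 reads in each library, among them Cfd, Hc (C5), C6, C7, C8a, C8b, Mbl1, Mbl2, Vtn and C4bp. In the edgeR fit 7 of the 24 rose, beside 16.4% of all genes, and 6 fell, beside 16.2%, with 4T1-CM. C1s2 (5, 1, 25 and 22 reads) and C1rb (2, 6, 14 and 6 reads) passed the filter only through 4T1-CM libraries, as Cfb did. Their differences between the media therefore cannot be separated from the filter, and C1s2 is counted among the 7. Of the 24, 8 were called by DESeq2, beside 2452 of 13715 genes. For CH223191 0 were called by either tool, with 2 at an unadjusted p below 0.05 in edgeR, beside 6.42% of all genes. DESeq2 gave no adjusted p for CH223191 to several of the 24, such as C1s1, C2, Masp1 and Cd55, so it could not call them. It gave C1rb none for 4T1-CM either. By fold, 8 of 24 were at least 2-fold higher (12.2% of all genes) and 3 lower (6.11%) with DMSO, and 5 higher (12.0%) and 4 lower (7.86%) with CH223191. The 8 include C1s2 and C1rb, and the 5 include C1s2. The median log2 ratios were 0.26 and -0.23, against 0.01 and 0.02 over all genes.

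The proteases that join C1q moved in the same direction as it. C1ra, the gene of C1r, had 55, 94, 497 and 453 reads and rose by 2.61 ± 0.21 with 4T1-CM (SE, adjusted p = 7.95e-06). C1s1, the gene of C1s, had 24, 12, 104 and 115 reads and rose by 2.53 ± 0.34 (adjusted p = 0.000261). Both have near-identical copies: 50.8% of the 50-base words of C1ra occur in C1rb, and 35.1% of those of C1s1 in C1s2. C2, the partner of C4 in the classical convertase, stood at 19, 14, 32 and 37 reads with an estimate of 0.98 ± 0.42 that did not pass (adjusted p = 0.0959), and 46.9% of its exonic bases lie within other genes. Masp1, a lectin pathway protease, had 7, 14, 59 and 26 reads (1.85 ± 0.52, adjusted p = 0.0195 in edgeR but 0.113 in DESeq2). Fcna, the gene of the lectin ficolin A, had 202, 279, 175 and 173 reads (-0.53 ± 0.18, adjusted p = 0.0410 in edgeR but 0.253 in DESeq2). C8g, a terminal component, stayed between 22 and 34 reads.

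Of 6 regulators kept, 1 rose and 0 fell with 4T1-CM in the edgeR fit, beside 16.4% and 16.2% of all genes. At an unadjusted p below 0.05 there were 2 of 6, beside 43.4% of all genes, and DESeq2 called 0. Cd55, which accelerates the decay of convertases, had 17, 26, 70 and 59 reads (1.50 ± 0.34, adjusted p = 0.00651 in edgeR but 0.0780 in DESeq2). Cr1l, the rodent surface regulator Crry, had 1074, 1261, 1139 and 909 reads, and Cd59a, which blocks the terminal pore, had 84, 130, 84 and 55. Neither passed (adjusted p = 0.156 and 0.0822). Cd59b and Clu, the gene of clusterin, stayed at or below 36 reads.

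Receptors split in both directions. C3ar1, the receptor of the C3a fragment, had 10713, 10091, 21826 and 20131 reads and rose by 0.93 ± 0.12 (SE, adjusted p = 0.000200). Itgam, the α chain of complement receptor 3, had 2541, 2790, 4648 and 4270 reads and rose by 0.66 ± 0.13 (adjusted p = 0.00279), although 68.7% of its exonic bases lie within Gm49368. Itgax, the α chain of complement receptor 4, had 37791, 39444, 14031 and 12849 reads and fell (-1.61 ± 0.12, adjusted p = 3.26e-06). Itgb2, the β chain of both receptors, had 48491, 58859, 41114 and 38349 reads (-0.51 ± 0.12, adjusted p = 0.00687). Vsig4, a receptor for C3b and iC3b on resident macrophages, had 116, 110, 34 and 34 reads (-1.81 ± 0.25, adjusted p = 0.000349). Cd93, once described as a C1q receptor, fell with an estimate of -0.90 ± 0.13 (adjusted p = 0.000385). C1qbp, which binds the globular heads of C1q, had an estimate of -0.41 ± 0.13 (adjusted p = 0.0309 in edgeR but 0.177 in DESeq2). C5ar1, the receptor of C5a, had 402, 540, 471 and 408 reads and did not pass (adjusted p = 0.435). C5ar2, named here after its values were seen, had 15, 21, 3 and 23 reads.

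**Figure D5:**
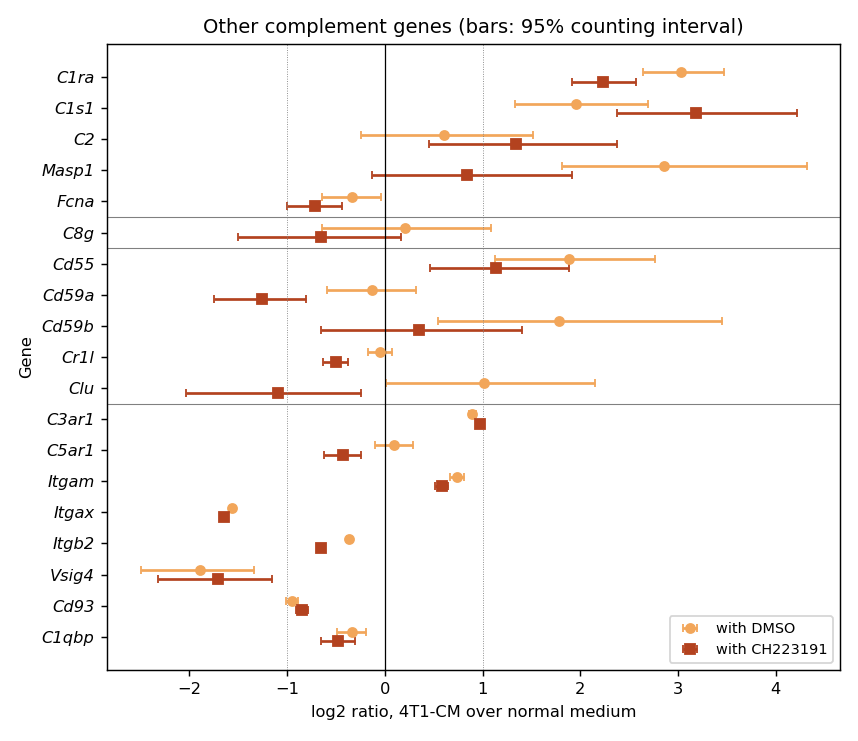
Log2 ratio of 4T1-CM over normal medium with DMSO (orange circles) and with CH223191 (red squares) for the 19 other complement genes whose mean reached 1 CPM, with exact 95% intervals for counting error; horizontal lines separate the classical and lectin, terminal, regulator and receptor groups, and dotted lines mark 2-fold. C1ra lies at 3.03 and 2.23, and Itgax at -1.56 and -1.65.

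The genes whose pattern over the 4 libraries lay nearest to that of the complement genes were named by a measure of likeness alone, the root mean square difference described above. Among 11762 genes, those nearest to the mean of C1qa, C1qb and C1qc were Gm38248 (0.054), Gstm5 (0.063), Fbxl4 (0.067), H2-Q7 (0.069) and Fgr (0.072). Fgr, a Src-family kinase of myeloid cells, had 358, 508, 1178 and 1205 reads. Among 11764 genes, those near to C3 included Thbs1 (0.127), Arg2 (0.135), Ier3 (0.138) and Tmeff1 (0.139). Thbs1, the gene of thrombospondin 1, had 615, 590, 16561 and 15619 reads. With 4 libraries, such likeness describes these libraries only.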

How the data were processed

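RNA was measured in 4 libraries of peritoneal macrophages, 1 per condition. The authors deposited whole-number counts of reads per gene, without normalization. HISAT2 2.0.5 and DESeq2 are named in the submitters' processing notes. The counting tool and its strand setting for these libraries are not given in the sources used here. Columns were matched to samples by name.

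A gene was kept if 1 library or more gave it 10 reads (13715 of 54532). Libraries were scaled with TMM (edgeR 4.0.16, R 4.3.3), and log2 ratios took a prior count of 0.5. Ratios between 2 genes and ratios to a library with 1 to 3 reads took none. A gene with 0 reads was set at the limit of 3 reads per library. Intervals are exact 95% Clopper-Pearson intervals unless named otherwise, and they cover counting error only, since each condition had 1 library. PCR copies are not independent molecules, so the intervals may be too narrow even for counting error.

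The additive fit was edgeR's quasi-likelihood test with medium and inhibitor as terms over 4 libraries, leaving 1 residual degree of freedom, with Benjamini-Hochberg adjustment over 13715 genes and a threshold of 0.05. Each SE beside an edgeR estimate was back-calculated as the absolute estimate divided by the square root of its F statistic. The fit assumes that both effects add on the log2 scale. In edgeR, a gene's own error is its departure from that sum, moderated with dispersions estimated over all genes kept. The p-values therefore draw on the spread of other genes as well. The departure mixes any interaction of medium and inhibitor with differences between single libraries, which may be technical. For C1qa, C1qb, C1qc and Cfp the departure lay beyond counting error, so their p-values rest on an assumption that these counts do not meet. Among the other complement genes, the same held for C1ra, C1s1, Masp1, Cd59a, Cr1l, Clu, C3ar1, C5ar1, Itgam, Itgax, Itgb2 and Cd93. The departure was not computed for genes with 3 reads or fewer in a library, nor for the listed factors and markers. DESeq2 1.42.0 with the same terms, DESeq2 size factors, total counts, no filter, at least 10 reads in every library, protein-coding genes alone and a prior count of 5 were the alternatives. Annotation was GENCODE M21 on GRCm38, which represents another strain than BALB/c, and promoters came from RefSeq GRCm38.p6.

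The text names the 8 genes, other listed complement genes whose mean reached 1 CPM and the 5 genes nearest in pattern to C1q and to C3. Listed factors and markers, near-identical copies, genes at 0 and C5ar2 are named outside that rule. Some genes that the lists or this rule would name are not reported here. The members and lists were chosen with earlier results of these data known. Scripts used Python 3.11.15, numpy 2.4.6, pandas 2.3.3, scipy 1.17.1 and matplotlib 3.10.9.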

Additional observations from a re-analysis of the deposited data

Results flagged for a closer look

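For 2 other complement genes, the same contrast went in opposite directions in both settings, each beyond counting error, and the difference was not tested against replicates. Clu, the gene of clusterin, had 12, 36, 27 and 17 reads. Its log2 ratio for 4T1-CM was 1.01 (0.01 to 2.15) among the DMSO libraries, which barely excludes 0. Among the CH223191 libraries it was -1.09 (-2.04 to -0.24). Cr1l, the gene of Crry, had 1074, 1261, 1139 and 909 reads. Its log2 ratio for CH223191 was 0.23 (0.12 to 0.35) under normal medium and -0.22 (-0.34 to -0.09) under 4T1-CM. No complement gene among the 8 went in opposite directions beyond counting error.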

How the results depend on the processing

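No paired analysis was possible because each condition had 1 library. Leaving out a library could not be fitted either, since 3 libraries leave no residual degree of freedom. All 164 log2 ratios of the complement genes recomputed under an alternative stayed within their counting interval, although Cfb in 4T1-CM against normal medium moved from 6.66 and 5.87 to 4.73 and 3.96 with a prior count of 5, and 81 of 82 estimates of the additive fit kept their direction and their side of the threshold. The exception was C3 with CH223191, at 0.02 and at -0.01 under total counts. Cfb with CH223191 had no adjusted p in DESeq2 and was counted as staying on its side of the threshold. With at least 10 reads in every library, 5 of 6 complement genes were at least 2-fold higher in 4T1-CM with DMSO and 3 of 6 with CH223191. Over all genes there were 851 and 869 of 11765. Without a filter the counts were 7 of 8 and 5 of 8, beside 4635 and 4367 of 21917. The range follows whether Cfb and Serping1 were kept. For CH223191 against DMSO in 4T1-CM the number of complement genes at least 2-fold changed was 0, and 1 without the filter (Serping1, on 8 against 4 reads).

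Counts over all genes depended on the filter. The 4 comparisons gave 2511, 2726, 1118 and 742 genes at least 2-fold changed, without a filter 7170, 7362, 5075 and 5243, and with at least 10 reads in every library 1350, 1546, 315 and 136. The comparisons of CH223191 with DMSO gave 622 and 366 with protein-coding genes alone, and 570 and 321 with a prior count of 5. The additive fit called 4476 genes for 4T1-CM and DESeq2 2452. For CH223191 it called 11, without a filter 193, and 0 with DESeq2 size factors, with total counts and with protein-coding genes alone. The count for CH223191 is thus not stable, and none of the complement genes was among those called with the filter. Genes at 3 reads or fewer, here Cfb in normal medium and Serping1, are limited by depth.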
